A study of Mus musculus with 6 samples.

Results

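Messenger RNA of 9 costimulatory receptors was followed in mouse CD8+ T cells cultured with vehicle or with aminoxyacetic acid (AOA), which blocks enzymes that depend on a phosphorylated form of vitamin B6 as their cofactor. The receptors were taken by name, and each of the 9 had a row among the 11922 genes of the count matrix. Cd28 and Icos belong to the CD28 family, Cd27, Tnfrsf4, Tnfrsf8, Tnfrsf9, Tnfrsf18 and Tnfrsf1b to the TNF receptor family, and Cd226 to neither. The cells were splenic CD8+ T cells of 3 C57BL6/J mice, isolated with beads against CD8α. They were activated with anti-CD3/anti-CD28 Dynabeads for 72 hours and kept until day 7, with human IL-2 at 100 units/ml in the medium. Water (vehicle) or 0.25 mM AOA was present throughout, and each mouse gave 1 culture to each group, so that there were 3 vehicle and 3 AOA libraries. CD28 was therefore itself engaged by antibody in both groups during the first days. No genetic change separated the groups, and the mice used, male and female, were older than 6 weeks, with no age given for each donor.

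Costimulatory receptors deliver the second signal that a T cell needs, beside its antigen receptor, to divide, survive and make cytokines. CD28 is present on resting T cells and ICOS appears after activation, and both recruit phosphoinositide 3-kinase through their cytoplasmic tails. CD27, OX40 (encoded by Tnfrsf4), CD30 (Tnfrsf8), 4-1BB (Tnfrsf9), GITR (Tnfrsf18) and the second TNF receptor (Tnfrsf1b) have no enzyme activity of their own and signal through TRAF adapters to the NF-κB pathway. CD226, also called DNAM-1, binds nectin-like ligands on target cells and promotes killing by CD8+ T cells and NK cells.

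Total counts per library ran from 12881962 to 18934869 with vehicle and from 18696114 to 21997078 with AOA. Levels are given as CPM, the counts divided by library size after TMM correction for composition, and the error is the SD over 3 mice. Groups were compared with the quasi-likelihood test of edgeR over 11759 genes, and a gene is called changed at a Benjamini-Hochberg adjusted p below 0.05. By this rule 53.0% of all tested genes were called, 26.2% higher and 26.8% lower with AOA. The 6 marker genes of the CD8 T cell list summed to between 3232 and 4154 CPM with vehicle and between 4334 and 5006 CPM with AOA. Of these, Cd8a and Cd8b1 were higher, with log2 fold changes of 1.03 and 0.64. The other 4, Cd3d, Cd3e, Cd3g and Cd247, are not particular to CD8 T cells. They were not called, with log2 fold changes from -0.31 to -0.13. Of the markers of CD4 and regulatory T cells, 5 of 5 had a row, and they summed to between 275 and 314 CPM with vehicle and between 66.8 and 126 CPM with AOA. B cell markers summed to at most 16.6 CPM with vehicle and 30.7 CPM with AOA, and macrophage and monocyte markers to at most 15.2 and 5.66 CPM. The 2 dendritic cell markers that had a row, Itgax and Xcr1, summed to between 27.4 and 48.7 CPM with vehicle and between 2.12 and 2.91 CPM with AOA. Most of the vehicle sum was Itgax, at 42.5, 43.4 and 22.8 CPM, while Xcr1 stood at 4.37, 5.26 and 4.56 CPM. Which cells held the Itgax mRNA was not tested. The 3 NK cell markers with a row summed to between 145 and 308 CPM with vehicle and between 128 and 213 CPM with AOA, mostly from Eomes, which CD8+ T cells also express, and Klrb1c was lower by a log2 fold change of -3.02. Ncr1, which defines NK cells, had 0, 37 and 0 counts with vehicle and 5, 11 and 3 with AOA, and Klrb1c stood at 41.7, 111 and 20.1 CPM with vehicle, so that vehicle replicate 2 was highest in both. Of 5 macrophage and monocyte markers 2 had a row. Lyz2 had 0, 5 and 0 counts with vehicle and 6, 22 and 2 with AOA, and Cd68 was lower with AOA, with a log2 difference of -1.91.

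AOA-treated cells held less mRNA of both CD28 family members and of 3 of the 6 TNF receptor family members, and more of Cd226. Cd28 and Icos fell 2.45-fold and 2.68-fold, Tnfrsf8 fell 30.6-fold to at most 18 counts in a library, and Tnfrsf4 and Tnfrsf1b fell 2.26-fold and 1.83-fold. Cd27, Tnfrsf9 and Tnfrsf18 were not called. In all, 6 of 9 receptors were called, against 53.0% of all tested genes, which is a similar share. In direction, 5 were lower, where 26.8% of all genes were, and 1 was higher, where 26.2% were. The median log2 fold change of AOA relative to vehicle was -0.88 over the 9 receptors and -0.02 over all tested genes. The ranges of the groups were apart for the same 6 receptors and for 62.1% of all genes, with AOA below for 5 receptors and 31.1% of genes and above for 1 receptor and 31.0%. A volcano plot of the study labels Icos and Tnfrsf8 among genes selected on these libraries, so their direction here is not independent evidence. By flow cytometry the study also reports less ICOS with rising AOA dose, which is protein and at an earlier time.

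**Figure D1:**
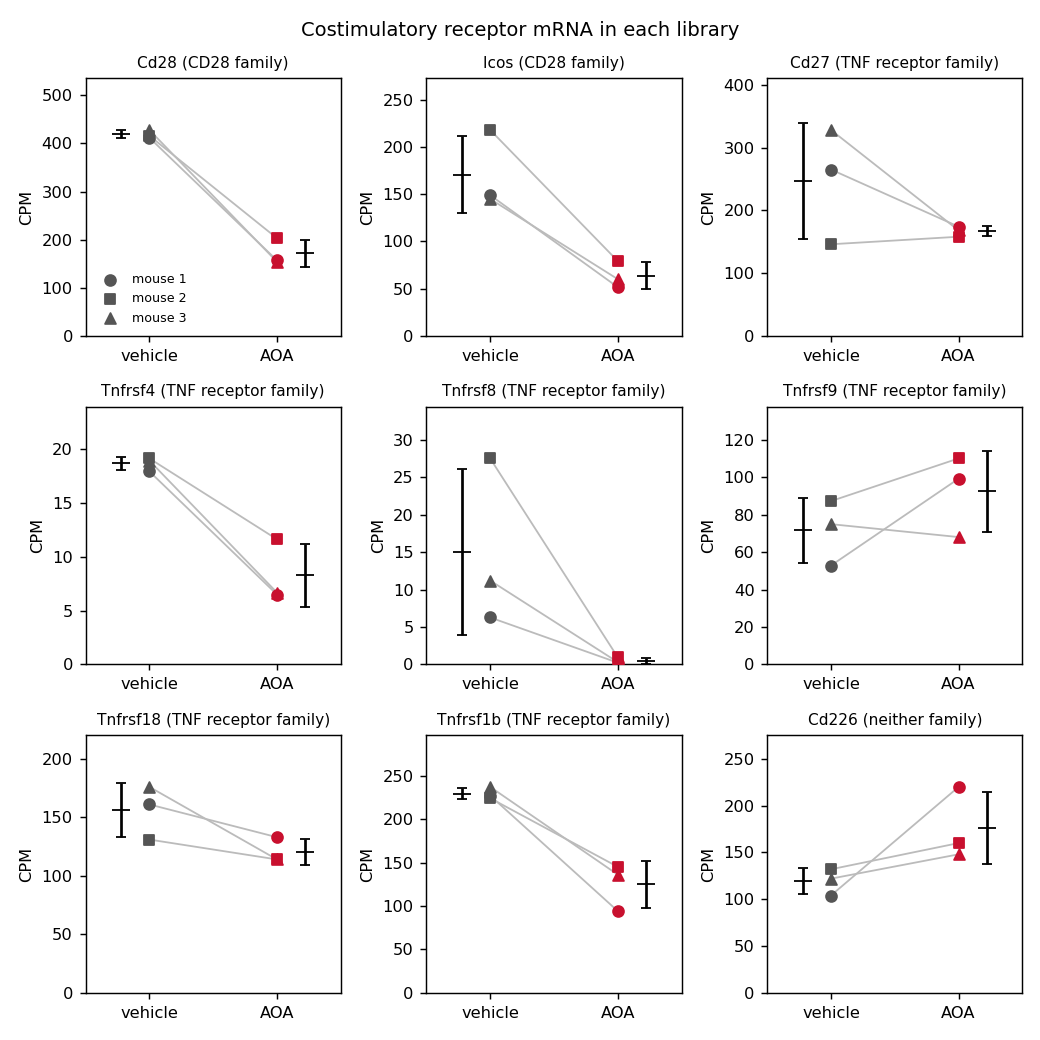
Level of each receptor in CPM (linear axes from 0) in the vehicle (grey) and AOA (red) library of each mouse, joined by lines, with mean and SD beside the points. The lines of Cd28, Icos, Tnfrsf4, Tnfrsf8 and Tnfrsf1b, and of Tnfrsf18, which was not called, fall in all 3 mice, those of Cd226 rise in all 3, and Cd27 and Tnfrsf9 move in opposite directions in different mice.

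Within the CD28 family, Cd28 (Entrez gene 12487, chr1:60716800-60773359 of GRCm38) stood at 412, 416 and 428 CPM in vehicle replicates 1, 2 and 3 and at 157, 203 and 154 CPM in AOA replicates 1, 2 and 3. The vehicle libraries differed little from each other, AOA replicate 2 was the highest of its group, and the groups did not overlap. The mean fell from 419 ± 8.38 to 171 ± 27.5 CPM (SD, n = 3), a log2 fold change of -1.29 (SE 0.15, edgeR adjusted p = 1.84e-04). Because the cultures were sequenced in bulk, fewer cells of a type and less mRNA per cell cannot be told apart for this gene or any other.

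Icos (Entrez gene 54167, chr1:60977927-61000320), the inducible member of the family, stood at 149, 218 and 145 CPM with vehicle and at 51.6, 79.2 and 60.1 CPM with AOA. Mouse 2 had the highest level in both groups, and the groups did not overlap. The log2 fold change was -1.42 (SE 0.21, edgeR adjusted p = 6.04e-04), and the differences within mice 1, 2 and 3 were -1.53, -1.46 and -1.27 log2 units. With each library left out the log2 fold change lay between -1.61 and -1.17 for Icos and between -1.43 and -1.22 for Cd28, and both stayed called. Cd28 and Icos are neighbours on chromosome 1, with the inhibitory receptor gene Ctla4 between them, 113.6 kb after Cd28 and 62.1 kb before Icos. The log2 ratio of Icos to Cd28 CPM was -1.32 ± 0.34 with vehicle and -1.43 ± 0.14 with AOA (SD, n = 3). This difference of -0.11 gave p = 0.800 in an exact two-sided permutation test, where the smallest p that 3 against 3 libraries allow is 0.1. Per kb of gene length Icos made up 34.8 ± 5.44% of the summed level of this pair with vehicle and 32.9 ± 2.17% with AOA (SD, n = 3), while the summed level went from 149 ± 12.1 to 59.1 ± 10.5 CPM per kb.

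Among the TNF receptor family, Tnfrsf8 (Entrez gene 21941, chr4:145267137-145315164, minus strand), which encodes CD30, a receptor of activated lymphocytes, changed most. Its vehicle libraries held 79, 434 and 207 counts and its AOA libraries 5, 18 and 6, or 6.27, 27.5 and 11.2 CPM against 0.230, 0.951 and 0.303 CPM. Every AOA library lay below every vehicle library, and within each group mouse 2 was highest. On the log2 scale the fold change was -4.93 (SE 0.68, edgeR adjusted p = 3.84e-04), and the differences within mice were -4.22, -4.70 and -4.78 log2 units. Vehicle replicate 2, which also had the most Klrb1c and Ncr1, held most of the counts, and the part of NK cells was not tested. Without it the log2 fold change was -4.14, while without AOA replicate 2 it was -5.78. Both values were called, and over the alternatives that kept this gene the adjusted p lay between 3.58e-16 and 0.00753.

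Tnfrsf1b (Entrez gene 21938, chr4:145213463-145246870, minus strand), the receptor for TNF and lymphotoxin that mediates costimulation, lies 20.3 kb from Tnfrsf8. Its levels were 227, 224 and 237 CPM with vehicle and 94.1, 145 and 136 CPM with AOA. The vehicle libraries were close together, AOA replicate 1 was lowest, and the groups did not overlap. The log2 fold change was -0.88 (SE 0.17, edgeR adjusted p = 0.00263). Each mouse had less of both genes with AOA. The log2 ratio of Tnfrsf8 to Tnfrsf1b CPM was -4.19 ± 1.08 with vehicle and -7.85 ± 0.67 with AOA (SD, n = 3), without overlap, and the exact two-sided permutation test gave its smallest possible p, 0.100 (adjusted over 3 such ratios, 0.150).

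To show the region from which each of these neighbours is transcribed, the 250 bases before their RefSeq start sites (GRCm38.p6) are printed 5′ to 3′ on the strand of the gene, in lower case. Capitals mark matches, on either strand, to TGANTCA, the AP-1 site, or to the NF-κB consensus.
Tnfrsf8, chr4:145315165-145315414: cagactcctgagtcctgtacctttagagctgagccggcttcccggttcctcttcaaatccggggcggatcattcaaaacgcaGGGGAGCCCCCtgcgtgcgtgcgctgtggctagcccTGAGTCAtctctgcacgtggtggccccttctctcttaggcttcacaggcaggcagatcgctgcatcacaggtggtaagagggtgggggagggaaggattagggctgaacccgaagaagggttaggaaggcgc
Tnfrsf1b, chr4:145246871-145247120: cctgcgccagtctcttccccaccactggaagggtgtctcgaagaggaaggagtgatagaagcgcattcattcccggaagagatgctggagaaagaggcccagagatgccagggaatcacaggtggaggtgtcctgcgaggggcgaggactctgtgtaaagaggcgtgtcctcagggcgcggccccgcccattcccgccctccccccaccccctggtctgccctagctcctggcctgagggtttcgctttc
Both windows lie outside annotated exons and outside any gene of GENCODE vM21. The Tnfrsf8 window held TGAGTCA, which begins 132 bases before the start, and GGGGAGCCCCC, which matches the NF-κB consensus in 2 overlapping registers from 168 bases before it. The Tnfrsf1b window held neither. Of all 32851 such windows from RefSeq, 6.75% held the AP-1 letters and 7.25% the NF-κB consensus. RefSeq windows matched 6 of the receptors, with 2 windows for Tnfrsf9. Both motifs also occurred in the downstream window of Tnfrsf9, as TGAGTCA and GGGGATTTCCC, and neither in the other windows. A match is a description of the letters, and binding was not measured.

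Tnfrsf4 (Entrez gene 22163, chr4:156013843-156016612), which encodes OX40, stood at 17.9, 19.1 and 18.9 CPM with vehicle and at 6.48, 11.6 and 6.66 CPM with AOA. The vehicle libraries were nearly equal, and AOA replicate 2 lay above AOA replicates 1 and 3 but below the vehicle range. The log2 fold change was -1.18 (SE 0.24, edgeR adjusted p = 0.00315), and the call held with each library left out, between -1.50 and -1.03. Tnfrsf18 (Entrez gene 21936, chr4:156026164-156028895), which encodes GITR, begins 9.6 kb further along the same strand. Its levels were 161, 131 and 176 CPM with vehicle and 133, 114 and 114 CPM with AOA. Each mouse had less Tnfrsf18 with AOA, by -0.28, -0.20 and -0.63 log2 units, but the groups overlapped and the gene was not called. Its log2 fold change was -0.38 (95% interval -0.72 to -0.04, adjusted p = 0.0588 by edgeR). It was called without vehicle replicate 2 (-0.46, adjusted p = 0.0168) and without AOA replicate 1 (-0.45, adjusted p = 0.0417), and the alternatives gave values from 0.0168 to 0.260. The log2 ratio of Tnfrsf4 to Tnfrsf18 CPM moved from -3.05 ± 0.24 to -3.90 ± 0.55 (SD, n = 3), with p = 0.100 in the exact two-sided permutation test, the smallest it can give, and 0.150 after adjustment.

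Icos, Tnfrsf4, Tnfrsf8 and Tnfrsf18 are also abundant in activated CD4 and regulatory T cells. Cd4 itself was at 82.8 ± 31.2 CPM with vehicle and 9.81 ± 3.61 CPM with AOA (SD, n = 3), and Zbtb7b, Cd40lg and Ikzf2 were lower, with log2 differences of -2.17, -2.58 and -1.26. Foxp3, which defines regulatory T cells, was at 13.3 ± 2.49 CPM with vehicle and 17.1 ± 1.42 CPM with AOA (SD, n = 3) and was not called. The methods describe isolation on CD8α beads, and the part of any CD4 T cells in the falls of the receptors was not tested.

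Cd27 (Entrez gene 21940, chr6:125232622-125237010, minus strand), a receptor of naive and memory T cells that supports survival, stood at 265, 146 and 328 CPM with vehicle and at 174, 158 and 168 CPM with AOA. Vehicle replicate 2 lay below all 3 AOA libraries, and the other two vehicle libraries lay above them. The AOA libraries were close together, with a coefficient of variation of 4.78% against 37.4% with vehicle. The change on the log2 scale was -0.56 (95% interval -1.13 to 0.01, adjusted p = 0.0897 by edgeR), and the gene was not called. Without vehicle replicate 2 it was -0.79 and called (adjusted p = 0.00144), while without vehicle replicate 3 it was -0.27, in a range of adjusted p over the alternatives from 0.00144 to 0.386.

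Tnfrsf9 (Entrez gene 21942, chr4:150914562-150946102) encodes 4-1BB, which is induced by activation and drives survival of CD8+ T cells. It stood at 52.8, 87.2 and 74.9 CPM with vehicle and at 99.2, 110 and 68.0 CPM with AOA. It was higher with AOA in mice 1 and 2 and lower in mouse 3, and the groups overlapped. Its log2 fold change was 0.37 (95% interval -0.14 to 0.87, adjusted p = 0.197 by edgeR). Its interval lies above those of the 5 receptors that fell, and it was not called under any alternative tried, where the adjusted p lay between 0.0578 and 0.477. Cd27 overlaps Vamp1, Tnfrsf9 overlaps Camta1 and Tnfrsf18 overlaps the antisense gene Gm16008, each on the opposite strand. The sources used here do not name the strand setting of the counting, so reads of these partners may be mixed. Icos overlaps Gm37039 and Cd27 overlaps Mir8113 on the same strand, which a strand setting would not separate.

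Cd226 (Entrez gene 225825, chr18:89176967-89272229) was the receptor that rose. It stood at 104, 132 and 122 CPM with vehicle and at 220, 160 and 148 CPM with AOA. AOA replicate 1 was the highest library by a wide margin, and all 3 AOA libraries lay above the vehicle range. The log2 fold change was 0.56 (SE 0.18, edgeR adjusted p = 0.0243), and the differences within mice were 1.08, 0.28 and 0.28 log2 units. The call was lost without AOA replicate 1 (0.37, adjusted p = 0.0502), without vehicle replicate 1 (0.49, adjusted p = 0.0840) and without vehicle replicate 3 (0.60, adjusted p = 0.0514), and the adjusted p ranged over the alternatives from 0.00781 to 0.0840.

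**Figure D2:**
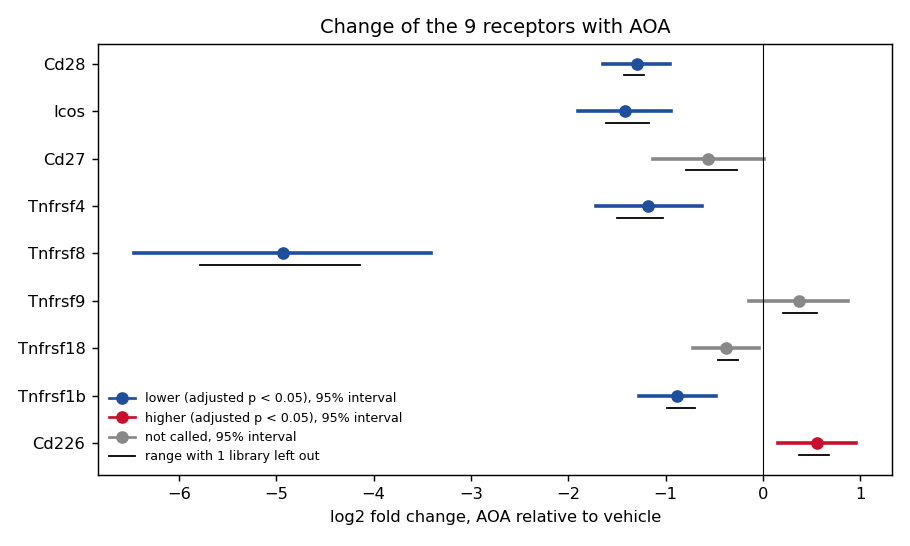
Log2 fold change of each receptor, AOA relative to vehicle, with its 95% interval from edgeR (coloured bars; blue lower, red higher, grey not called) and the range when 1 library is left out (thin black bars). Tnfrsf8 at -4.93 lies far to the left of the others, which sit between -1.42 and 0.56.

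Levels can be compared between genes only per kb of gene length. On that scale, in vehicle-treated cells, Cd27 and Tnfrsf18 led with 156 ± 58.5 and 155 ± 23.1 CPM per kb (SD, n = 3), and their ranges overlapped. Cd28 followed at 97.0 ± 1.94 CPM per kb, apart from Tnfrsf18 and Icos, though vehicle replicate 2 had less Cd27 than this, at 92.7 CPM per kb. Icos, Cd226 and Tnfrsf1b formed a middle group between 46.7 and 52.4 CPM per kb, each with a range that overlapped the next. Tnfrsf9, at 32.3 ± 7.86 CPM per kb, lay below them, and Tnfrsf4 and Tnfrsf8 were lowest, at 16.1 ± 0.571 and 9.53 ± 7.06 CPM per kb, with overlapping ranges.

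With AOA the order changed. Tnfrsf18 and Cd27 still led, at 119 ± 10.9 and 106 ± 5.07 CPM per kb (SD, n = 3), but Cd226 now came next at 70.8 ± 15.5 CPM per kb, with no library in common with the range below it. Tnfrsf9 at 41.6 ± 9.81 and Cd28 at 39.6 ± 6.36 CPM per kb overlapped. Icos, at 19.6 ± 4.35 CPM per kb, had moved below Tnfrsf1b, at 25.5 ± 5.54 CPM per kb, with overlapping ranges. Tnfrsf8 was last at 0.314 ± 0.252 CPM per kb, well separated from Tnfrsf4 at 7.13 ± 2.50. Within the TNF receptor family, Cd27 and Tnfrsf18 together held most of the summed level in every library. The share of Tnfrsf9 was 8.03 ± 3.07% with vehicle and 13.8 ± 2.81% with AOA, that of Tnfrsf8 was 2.51 ± 2.27% and 0.105 ± 0.0827%, and that of Tnfrsf18 was 37.4 ± 1.37% and 39.7 ± 2.50% (SD, n = 3).

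**Figure D3:**
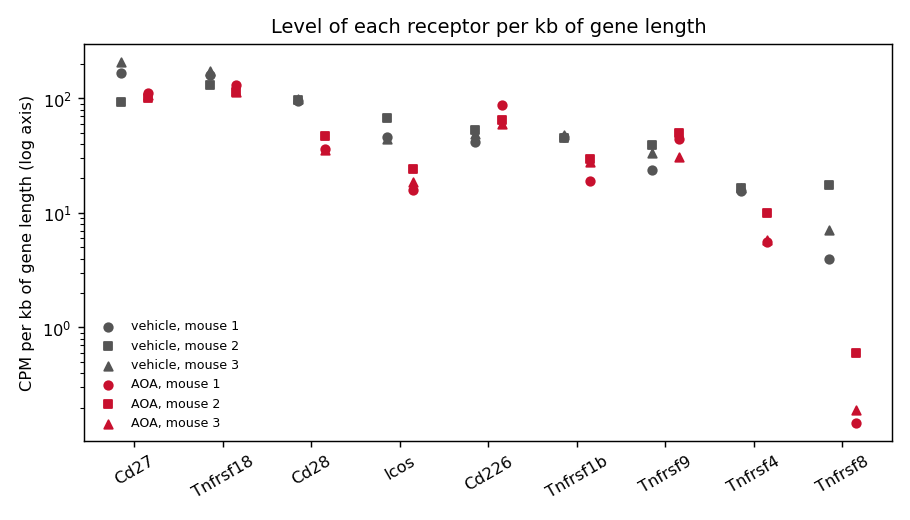
Level of each receptor in CPM per kb of gene length (log axis) in every library, ordered by the vehicle mean, with grey for vehicle, red for AOA and a marker shape for each mouse. Cd28 lies above Icos with vehicle and beside Tnfrsf9 with AOA, and Tnfrsf8 spans 0.146 to 17.5 CPM per kb over the 6 libraries.

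The receptors also differed in how far the mice varied. With vehicle, Cd28, Tnfrsf1b and Tnfrsf4 had coefficients of variation of 2.00%, 2.98% and 3.54% over the 3 libraries, while Tnfrsf8 had 74.1%. With AOA the first 3 varied more, at 16.1%, 21.8% and 35.1%. Mouse 2 had the highest Icos, Tnfrsf4, Tnfrsf8 and Tnfrsf9 and the lowest Cd27 in both groups. This is a description of 3 mice, and no test was made of it.

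The inhibitory members of the CD28 family were read beside Cd28 and Icos, since CTLA-4 competes with CD28 for its ligands. Ctla4 stood at 634, 348 and 734 CPM with vehicle and at 137, 155 and 99.7 CPM with AOA, and Pdcd1, which encodes PD-1, fell from 45.9 ± 20.3 to 6.74 ± 0.819 CPM (SD, n = 3). Their log2 fold changes were -2.13 (adjusted p = 3.40e-04 by edgeR) and -2.76 (adjusted p = 1.32e-04), both further from 0 than those of Cd28 and Icos, a difference that was not tested. Btla, which binds HVEM, was at 36.0 ± 14.5 CPM with vehicle and 58.0 ± 8.39 CPM with AOA (SD, n = 3) and was not called (0.69, adjusted p = 0.0586 by edgeR). A replicate block for the mouse brought it past the threshold (0.76, adjusted p = 0.0116), as did leaving out vehicle replicate 3 (1.03, adjusted p = 0.0102), and the alternatives gave values from 0.0102 to 0.198.

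TIGIT and CD96 bind ligands that CD226 also binds, and TIGIT opposes it. Tigit stood at 75.7, 60.2 and 72.1 CPM with vehicle and at 8.41, 20.5 and 12.6 CPM with AOA, a log2 fold change of -2.33 (SE 0.29, edgeR adjusted p = 2.21e-04), against the rise of Cd226. Cd96 was at 217 ± 22.3 CPM with vehicle and 221 ± 19.3 CPM with AOA (SD, n = 3), with a 95% interval of the log2 fold change from -0.29 to 0.34.

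Ligands of the receptors are mostly made by antigen-presenting cells, and activated T cells make several of them. Of 12 ligand genes 9 had a row and were tested, of which 3 were higher and 3 lower with AOA, against 26.2% and 26.8% of all genes, and the median log2 fold change was -0.33. Lta and Tnf, whose products lymphotoxin-α and TNF bind the receptor encoded by Tnfrsf1b, rose while that receptor fell. Lta stood at 18.3, 20.4 and 18.2 CPM with vehicle and at 103, 89.0 and 89.7 CPM with AOA, a log2 fold change of 2.31 (SE 0.14, edgeR adjusted p = 1.26e-05), and that of Tnf was 1.35 (adjusted p = 0.00163). Tnfsf8, the ligand of CD30, also rose while Tnfrsf8 fell. It stood at 52.9, 112 and 76.3 CPM with vehicle and at 154, 123 and 133 CPM with AOA (0.76, adjusted p = 0.0250 by edgeR). Its call was lost without vehicle replicate 1 (0.55), without vehicle replicate 3 (0.74), without AOA replicate 1 (0.67) and without AOA replicate 3 (0.78).

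Tnfsf9, the ligand of 4-1BB, fell from 8.64 ± 3.28 to 3.57 ± 0.718 CPM (SD, n = 3), with a log2 fold change of -1.27 (adjusted p = 0.00724 by edgeR). Pvr, a ligand of CD226, fell from 37.6 ± 3.45 to 20.6 ± 1.51 CPM (SD, n = 3), with a log2 fold change of -0.87 (adjusted p = 9.55e-04). Cd86, a ligand of CD28, fell from 7.04 ± 4.19 to 2.29 ± 1.32 CPM (-1.62, adjusted p = 0.0282 by edgeR), a call lost without vehicle replicate 3 (-0.98), without AOA replicate 2 (-1.22) and without AOA replicate 3 (-1.70). B cells and dendritic cells express Cd86 too, and their part in this fall was not tested. The other ligand genes tested, which are named for completeness after their values were seen, were Cd80, Icosl and Tnfsf4, and none was called. Cd80 had a log2 fold change of -0.64, which was 0.03 without vehicle replicate 2 and -0.96 and called without vehicle replicate 1, and Icosl one of -0.33, which was -0.45 and called without vehicle replicate 2. Tnfsf4, the ligand of OX40, had 2.06, 21.0 and 3.58 CPM with vehicle and 23.7, 22.1 and 19.4 CPM with AOA. Vehicle replicate 2 alone reached the AOA range, and without it the log2 fold change went from 1.28 (adjusted p = 0.131 by edgeR) to 2.94 (adjusted p = 2.32e-05). The replicate block gave 1.87 and a call (adjusted p = 0.0235), and the alternatives gave values from 2.32e-05 to 0.328.

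**Figure D4:**
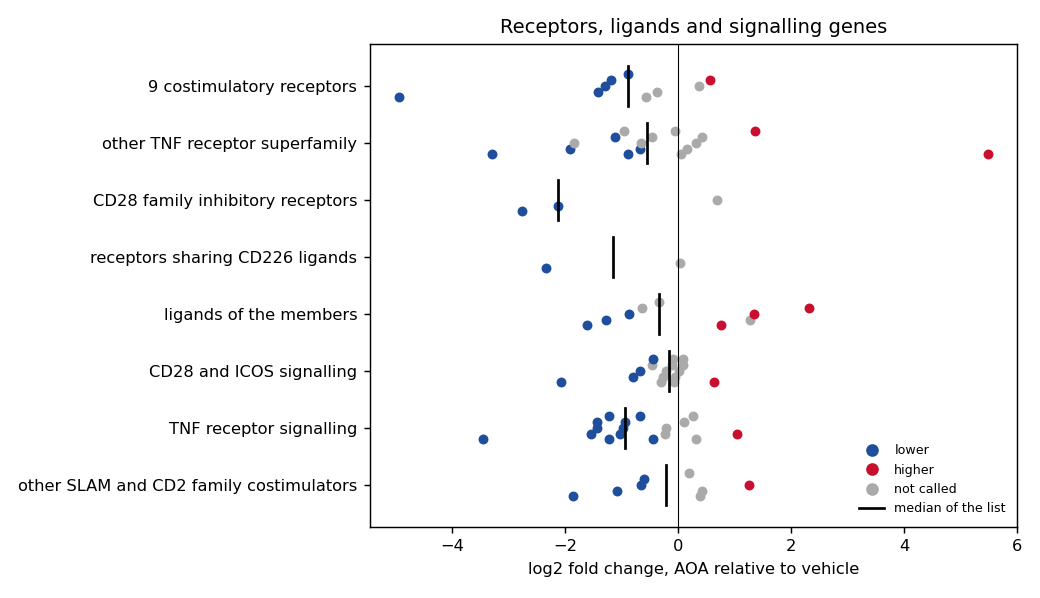
Log2 fold change, AOA relative to vehicle, of each tested gene (points; blue lower, red higher, grey not called) in the receptor set and in 7 related lists, with the median of each list as a black line. The median of the TNF receptor signalling genes lies at -0.94 and that of the CD28 and ICOS signalling genes at -0.17.

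Of 16 genes that carry the signal of CD28 and ICOS, 1 was higher and 4 were lower with AOA, against 26.2% and 26.8% of all genes, and 11 were not called, with a median log2 fold change of -0.17, against -0.02 over all tested genes. Malt1, a protease that acts in NF-κB signalling, fell from 480 ± 35.9 to 113 ± 21.1 CPM (SD, n = 3), a log2 fold change of -2.08 (adjusted p = 2.92e-05 by edgeR). Pik3r1, a regulatory subunit of phosphoinositide 3-kinase, fell by 0.79 on the log2 scale, while Akt1, a kinase downstream of phosphoinositide 3-kinase, rose by 0.63. The number lower was 2 without vehicle replicate 1 and 2 without vehicle replicate 3.

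Of the 17 genes of TNF receptor signalling, 11 were lower and 1 higher with AOA, against 26.8% and 26.2% of all genes, with a median log2 fold change of -0.94. Tnfaip3, which encodes the NF-κB inhibitor A20 and is itself an NF-κB target, stood at 321, 99.0 and 278 CPM with vehicle and at 18.2, 25.8 and 20.1 CPM with AOA, a log2 fold change of -3.45 (adjusted p = 1.60e-04 by edgeR). Traf1, an adapter of OX40, 4-1BB and CD30, fell from 485 ± 86.0 to 167 ± 2.73 CPM (SD, n = 3), and Birc2, a ubiquitin ligase recruited with the TRAF proteins, from 151 ± 25.8 to 55.9 ± 11.2 CPM. The groups of libraries did not overlap for any of these genes. Siva1, whose product binds the tail of CD27, rose from 15.1 ± 2.11 to 31.4 ± 7.33 CPM (SD, n = 3), a log2 fold change of 1.05 (adjusted p = 0.00201 by edgeR). The number higher was 3 without vehicle replicate 2 and 2 without AOA replicate 1.

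Of 22 genes of the TNF receptor superfamily outside the 6 costimulatory members, 16 had a row and were tested, of which 2 were higher and 5 lower, against 26.2% and 26.8% of all genes, and 9 not called, with a median log2 fold change of -0.56. Among the genes called, the largest falls were those of Tnfrsf23, Tnfrsf22 and Tnfrsf26, a group of related mouse genes that includes decoy receptors for TRAIL, with log2 fold changes of -3.29, -1.91 and -1.12 (adjusted p of at most 2.12e-04 by edgeR). These 3 genes are similar in sequence and may share reads, so their separate levels are uncertain. Tnfrsf11a, which encodes RANK, had 3 counts over the vehicle libraries and 194 over the AOA libraries, a ratio of 50.0 with a 95% counting interval from 16.9 to 245. Its log2 fold change was 5.48 (adjusted p = 1.12e-04 by edgeR), and between 4.85 and 6.50 with each library left out. Tnfrsf21, which encodes death receptor 6, rose from 4.50 ± 0.930 to 11.6 ± 1.70 CPM (SD, n = 3), a log2 fold change of 1.36 (adjusted p = 0.00123 by edgeR). Without vehicle replicate 2 the number higher was 4, and with the mouse as a block the number lower was 7.

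Among 8 genes of the SLAM and CD2 families, which give costimulation by contact between lymphocytes, 1 was higher and 4 were lower, against 26.2% and 26.8% of all genes, and their median log2 fold change was -0.21. Slamf6 stood at 111, 113 and 114 CPM with vehicle and at 54.4, 62.7 and 43.2 CPM with AOA, a log2 fold change of -1.08 (adjusted p = 4.65e-04 by edgeR). Cd84 fell by 0.66 on the log2 scale. Cd244a fell by 1.86, with most of its vehicle counts in vehicle replicate 2, without which the log2 fold change was -0.70, and its call was lost without AOA replicates 1, 2 and 3 in turn (-1.81, -2.06 and -1.71). Cd48, a ligand of CD2 and 2B4, rose from 175 ± 47.2 to 420 ± 98.1 CPM (SD, n = 3), a log2 fold change of 1.26 (adjusted p = 0.00175 by edgeR). The number lower in this list was 2 without AOA replicate 2 and 2 without AOA replicate 3, and the number higher was 2 without vehicle replicate 2 or vehicle replicate 3.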

How the data were processed

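RNA of 3 vehicle and 3 AOA cultures was sequenced as stranded mRNA libraries. The authors aligned reads with default STAR parameters, counted those that mapped uniquely, and deposited raw counts per gene beside gene lengths. The submitters' processing notes also name featureCounts, DESeq2 and mm10, and the sources used here do not give the annotation or strand setting. Groups come from the treatment label. Counts were filtered with filterByExpr (minimum count of 10) and normalised by TMM. They were tested with the robust quasi-likelihood test of edgeR 4.0.16 in R 4.3.3, with Benjamini-Hochberg adjustment over 11759 genes. Simulated data on which the test was tried had few changed genes and no mouse effect, so they do not show how it performs here. Log2 CPM values used a prior count of 2. The smallest p of an exact permutation test over 3 against 3 libraries is 0.1. No replicate pair matched within sampling noise (chi-square per gene of at least 10.0). Vehicle replicate 2 and AOA replicate 1 stood apart from the other libraries of their groups. Pairs with vehicle replicate 2 gave 55.1 and 59.7, against 10.0 for vehicle replicates 1 and 3. Pairs with AOA replicate 1 gave 71.1 and 64.6, against 10.5 for AOA replicates 2 and 3. Intervals are 95% intervals of the quasi-likelihood fit.

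Per the labels, which number the mouse donor of each library, both groups came from the same 3 animals. Across genes, the deviations of the vehicle and AOA library from their group means correlated in mice 1, 2 and 3 with r of 0.0868, 0.189 and 0.194. Alternatives were DESeq2 1.42.0, limma 3.58.1 (voom), other scalings and filters, the mouse as a block, each library left out, and a fold requirement (log2 change of 1 or more), which the ranges of adjusted p leave out. The receptors and lists were chosen with earlier results of these data known. Named from the lists were both small receptor lists in full and at most 3 genes called in each direction, those with the largest changes, that reached 1 CPM on average in either group, besides the exceptions stated. A gene that this rule would name is not reported here. Positions come from GENCODE vM21 (GRCm38) and promoter windows from RefSeq (GRCm38.p6). Motifs were chosen after the sequences were seen, and protein sequences were not used here. Intervals of counts cover counting error only.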

Additional observations from a re-analysis of the deposited data

How the results depend on the processing

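Of 125 alternative values of the 9 receptors, 116 kept their direction and their side of the threshold, and none changed direction. With each library left out between 5 and 8 receptors were called, between 5 and 7 of them lower and between 0 and 1 higher, while between 4922 and 6764 of all 11759 genes were called. The 0 is the loss of Cd226, and the 8, reached without vehicle replicate 2, where the 6764 genes were called too, adds Cd27 and Tnfrsf18. Tnfrsf18 was also called when at least 10 CPM in 3 libraries were required (-0.41, adjusted p = 0.0396, range 0.0168 to 0.260), a filter that removed Tnfrsf8. With the mouse as a replicate block 6 receptors and 6292 genes were called, against 6 and 6233 without it, and the block changed no call besides those of Btla and Tnfsf4 among the genes named. No scaling moved the median of all genes by more than 0.1 log2 units. A fold requirement (log2 change of 1 or more) left by construction 3081 genes, 4 receptors lower and 0 higher. The related lists held 71 tested genes, of which 38 were called, against 53.0% of all genes, 30 lower and 8 higher. With the fold requirement 24 were called, against 26.2% of all genes, and 18 were lower. With the mouse as a block 43 were called, 32 lower and 11 higher. With each library left out between 32 and 47 were called, between 24 and 33 of them lower and between 7 and 14 higher. The 47, the 33 and the 14 were reached without vehicle replicate 2. Cd96, at 0.03, had log2 fold changes of -0.01 with the 10 CPM filter and from -0.03 (without vehicle replicate 1 or AOA replicate 1) to 0.12 with each library left out. Cd80, at -0.64, went from -0.96 to 0.03 (without vehicle replicate 2). Btla was also called by DESeq2 (0.70), limma (0.76), with total counts only (0.71) and without the low-count filter (0.72), Tnfsf4 by limma (1.96), and Cd244a was lost by limma (-1.50).

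Among single lists, the fold requirement took lower genes from 5 to 3 among the other TNF receptors, from 4 to 1 in CD28 and ICOS signalling, from 11 to 7 in TNF receptor signalling and from 4 to 2 in the SLAM and CD2 families, and higher genes from 1 to 0 in CD28 and ICOS signalling. The 10 CPM filter, which tested fewer genes, took the other TNF receptors from 2 higher to 0 and the ligands from 3 lower to 1. DESeq2, total counts only, no filter and the block each gave 2 higher SLAM and CD2 family genes in place of 1. Where no construction is named, the cause was not tested. Among the 9 receptors, Tnfrsf8 had the lowest count in a library, 5.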
